A study of Mus musculus with 12 samples.

Results

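The proteasome is the protease complex that degrades ubiquitin-tagged proteins, and its subunits are encoded by the Psma, Psmb, Psmc, Psmd and Psme genes. Every gene whose symbol is one of these 5 stems followed by a number was taken, which gave 43 genes of the 53715 in the table. Of the 43, 42 had enough counts to be tested, and the exception was Psmb11. RNA was measured in spermatogonia, the premeiotic germ cells of the testis, from mice labelled as C57BL6/129. Each of the 12 libraries was made by Smart-seq2, a method that amplifies full-length cDNA from small inputs, from 1000 cells collected by flow sorting. The libraries form 4 groups of 3, which are wild type (WT) at 3 months, Tet1KO at 3 months, WT at 11 months and Tet1KO at 11 months. Tet1 encodes an enzyme that oxidises methylated cytosine, and the labels do not describe the allele, the cells in which it is lost or the sort gate. No label states that each library is a different animal. The p-values therefore rest on the spread between these samples alone, which may be technical.

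As background, the core particle is a barrel of stacked rings of alpha and beta subunits, and the beta subunits Psmb5, Psmb6 and Psmb7 carry the chymotrypsin-like, caspase-like and trypsin-like active sites. A cap placed on the barrel recognises ubiquitin, unfolds the substrate with a ring of ATPases (Psmc1 to Psmc6) and removes the ubiquitin with a lid subunit, Psmd14. In cells exposed to interferon, Psmb8, Psmb9 and Psmb10 replace Psmb5, Psmb6 and Psmb7 to form the immunoproteasome, which alters the peptides offered to T cells. In male germ cells Psma8 takes the place of Psma7 to form the spermatoproteasome, which is needed for meiosis. Cap-independent activators include PA28 (Psme1 with Psme2, or Psme3) and PA200 (Psme4), the latter known for its part in histone degradation during sperm formation. Many proteasome genes are induced together by the transcription factor NFE2L1 when proteasome activity is low.

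That shared control is the reason for looking at promoters. RefSeq promoters of build GRCm38.p6 (mm10) matched 36 of the 43 genes by symbol, and the 250 bases before each start were searched on both strands. TGACNNNGC, the core of the antioxidant response element to which NFE2L1 and NFE2L2 bind, was found in 5 of the 36 (13.9%), which were Psmb5, Psmb6, Psmc6, Psmd12 and Psmd9, and in 10.2% of all 32851 promoters in the table. A core of the interferon stimulated response element, a pair of GAAA blocks with any 2 bases between them, was found in 3 of the 36 (8.33%; Psmb3, Psmd4 and Psmd9) against 2.98% of all promoters. TTCNNNGAA, a core of the interferon gamma activated site, was found in 1 of the 36 (2.78%; Psmb8) against 7.02%. Of the genes named, only Psmd9 matched more than 1 of the motifs, and a match describes letters only. The 36 genes were counted once each, with a match in any promoter of the gene. The shares of all promoters count each promoter, so the units differ. Upstream sequence is shown for the catalytic genes Psmb5 and Psmb6, for the immunoproteasome gene Psmb10, and for the ATPase genes Psmc4 and Psmc5, which had the 2 smallest p-values in 3 of the 5 comparisons below. Each is written 5′ to 3′ on the gene's strand and ends where the first annotated exon base begins or earlier, with TGACNNNGC in capitals where present.
Psmb5 (chr14:54618023-54618245, minus strand): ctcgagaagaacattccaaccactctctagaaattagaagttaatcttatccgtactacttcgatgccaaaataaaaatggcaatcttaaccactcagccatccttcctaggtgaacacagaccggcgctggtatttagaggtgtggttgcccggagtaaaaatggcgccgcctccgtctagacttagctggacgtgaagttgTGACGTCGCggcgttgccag
Psmb6 (chr11:70525107-70525356, plus strand): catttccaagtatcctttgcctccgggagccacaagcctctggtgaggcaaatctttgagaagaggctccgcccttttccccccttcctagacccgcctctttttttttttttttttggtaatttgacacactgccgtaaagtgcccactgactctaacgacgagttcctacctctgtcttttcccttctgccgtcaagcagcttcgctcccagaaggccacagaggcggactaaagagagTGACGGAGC
Psmb10 (chr8:105938445-105938642, minus strand): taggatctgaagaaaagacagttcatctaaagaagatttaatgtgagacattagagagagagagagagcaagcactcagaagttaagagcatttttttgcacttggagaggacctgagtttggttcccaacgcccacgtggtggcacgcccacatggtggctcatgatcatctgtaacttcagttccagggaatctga
Psmc4 (chr7:28050102-28050342, minus strand): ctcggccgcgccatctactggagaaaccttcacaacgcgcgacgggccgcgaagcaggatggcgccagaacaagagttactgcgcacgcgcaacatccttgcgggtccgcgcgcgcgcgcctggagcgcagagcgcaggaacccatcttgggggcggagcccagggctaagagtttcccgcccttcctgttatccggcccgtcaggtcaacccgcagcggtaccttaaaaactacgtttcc
Psmc5 (chr11:106256080-106256153, plus strand): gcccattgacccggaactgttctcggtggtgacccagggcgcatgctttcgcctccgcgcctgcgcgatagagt
The match started 47 bases before the RefSeq start of Psmb5 and 9 bases before that of Psmb6. No TGACNNNGC stood in the 3 other stretches as printed.

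Libraries held 8325159 to 18223645 counts. Levels are given as CPM, counts relative to the library total after scaling for composition. The upper limit that a count of 0 leaves is 3 counts, or 0.162 to 0.402 CPM by library, for counting error only. The reads carry no molecular identifiers. Tet1 itself had 15, 16 and 0 counts in the WT libraries of 3 months and 6, 11 and 18 in the Tet1KO libraries of that age. At 11 months the WT libraries held 1, 16 and 5 counts of Tet1 and the Tet1KO libraries 1, 17 and 5. Its counts therefore did not separate the genotype labels, and WT and Tet1KO below mean the libraries labelled so. The germ cell genes Dazl (1651 to 2503 CPM) and Ddx4 (261 to 386 CPM) were abundant in every library. Replicate 1 of WT and replicate 2 of Tet1KO at 3 months stood apart from the other 10 libraries on the first principal component (39.0% of the variance). Values without them are given below for Psma8, for the class counts at 3 months and for the marker lists compared at 3 months or between ages in WT.

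Proteasome subunits held a similar share of the counts in each library and varied about as much as other genes of like abundance. Summed over the 43 genes, the WT libraries of 3 months reached 14426 ± 1040 CPM (SD, n = 3) and the Tet1KO libraries 14043 ± 115 CPM. The sums at 11 months were 15011 ± 1414 CPM for WT and 13829 ± 1787 CPM for Tet1KO. They held 1.34% to 1.58% of all counts per library. In bulk samples of this kind, fewer cells of a type and less RNA per cell cannot be told apart. Of the 42 tested genes, 34 differed by less than 2-fold between the lowest and the highest of the 12 libraries. Within groups, the 39 genes with a mean of at least 5 log2 CPM had a median SD of 0.21 (log2), against 0.23 for all 5611 genes that abundant.

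To compare genes with each other, CPM was divided by the length of annotated exon in kilobases. On this scale the core genes were the most abundant, and all 12 of the highest ranked subunit genes encoded standard alpha or beta subunits. Means over the 12 libraries ran from 130 to 1183 CPM per kilobase for the 14 standard core genes (median 273) and from 4.93 to 164 for the 17 cap genes (median 64.9). Each of the 14 core genes lay above the cap median. Annotated exons that these cells do not use lower this measure, so the order describes the annotation as well as the RNA.

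Among the 7 standard alpha ring genes, Psma6 was highest at 495 CPM per kilobase and Psma3 lowest at 130, with Psma7 at 143. The ranges of Psma7 (115 to 178) and Psma3 (86.6 to 159) over the libraries overlapped. Of the 4 beta genes without an active site, Psmb1 (1183 CPM per kilobase, 857 to 1590) and Psmb2 (1175, 912 to 1492) overlapped nearly completely, and Psmb3 was lowest at 236. The 3 catalytic genes followed in the order Psmb6 (363 CPM per kilobase, 263 to 438), Psmb5 (325, 249 to 425) and Psmb7 (182, 159 to 216). Psmb6 and Psmb5 overlapped in range, while every value of Psmb7 lay below every value of both.

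Of the 6 ATPase genes of the cap, Psmc6 was highest at 164 CPM per kilobase and Psmc2 lowest at 44.0. Among the 3 non-ATPase genes of the cap base, Psmd4, a ubiquitin receptor, was highest at 64.9 and Psmd1 lowest at 27.3. The 8 lid genes ran from Psmd14, the deubiquitinase, at 153 CPM per kilobase down to Psmd3 at 4.93. Psmd5, Psmd9 and Psmd10 encode chaperones of cap assembly rather than subunits of the finished particle, and they ran from 54.7 (Psmd10) down to 5.42 (Psmd9). Among the activators, Psme2 (153 CPM per kilobase) and Psme1 (68.0) stood above Psme3 (33.4) and Psme4 (16.3). Psmb11, the beta subunit of the thymus form, had 22 counts in all 12 libraries together and at most 6 in any of them.

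**Figure D1:**
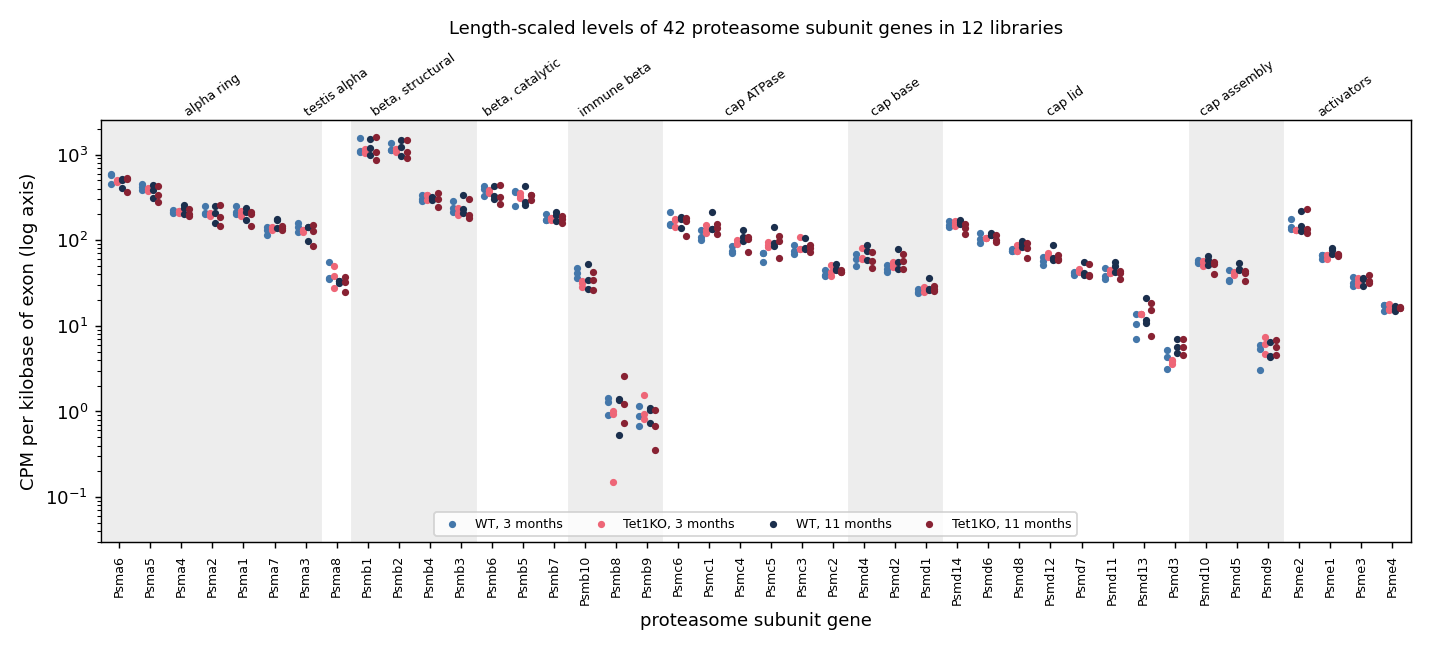
Length-scaled levels of the 42 tested proteasome genes, in CPM per kilobase of exon on a log axis, with 1 point per library (12 per gene, coloured by group) and genes ordered by class. The standard core genes lie at the top, from a mean of 130 to 1183, Psma8 and Psmb10 lie near 36.2, and Psmb8 and Psmb9 lie near 1.

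Some of these values depend on how reads were assigned. Exons of 12 of the 43 genes share bases with another gene, and reads there were counted for both without regard to strand. The longest overlap among the standard core genes was 405 bases between Psmb7 and Nek6, and Psmb5 shared 109 bases with Mir686. Psmb8 shared 186 bases with Gm20496, and Psmb9 shared 212 bases with Tap1 on the other strand. Psme2 has a near-identical copy, Psme2b, listed at 44.6 to 95.9 CPM, so the split of reads between those 2 genes is uncertain.

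Psma8, the germ cell alpha subunit, was present in every library, and the genotypes overlapped at both ages. The 3 WT libraries of 3 months had 93.2, 60.6 and 60.2 CPM and the Tet1KO libraries 65.1, 83.8 and 46.5 CPM. The WT libraries of 11 months had 53.2, 57.2 and 56.2 CPM and the Tet1KO libraries 54.4, 41.99 and 62.9 CPM. The highest values came from replicate 1 of WT and replicate 2 of Tet1KO at 3 months. In the edgeR fit the Tet1KO minus WT log2 fold change of Psma8 was -0.13 ± 0.24 (SE) at 3 months and -0.06 ± 0.24 at 11 months, with an adjusted p of 1 at both ages. At 3 months it was 0.11 without replicate 1 of WT, -0.36 without replicate 2 of Tet1KO and -0.12 without both. At 11 months it was 0.08 without replicate 2 of Tet1KO.

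Between ages, every WT value of Psma8 at 11 months lay below every WT value at 3 months, with a log2 fold change of -0.36 ± 0.24 (unadjusted p = 0.152, adjusted p = 0.785, edgeR). It was -0.12 without replicate 1 of 3 months, and the remaining values still did not overlap. Groups that do not overlap in this direction made up 6.12% of all tested genes in that comparison. In Tet1KO the log2 fold change of Psma8 with age was -0.30 ± 0.24, and it was -0.07 without replicate 2 of 3 months. Against Psma7, the length-scaled share of Psma8 in the sum of both at 3 months was 24.6 ± 6.81% (SD, n = 3) for WT and 21.8 ± 5.46% for Tet1KO. At 11 months the share was 16.8 ± 1.34% in WT and 18.2 ± 2.76% in Tet1KO. Single libraries ran from 15.04% to 32.4%. The highest share was that of replicate 1 of WT at 3 months, and the other libraries of that group had 21.3% and 20.05%. Annotated exon is 1693 bases for Psma8 and 3072 for Psma7, so the scaling raises this share. Unscaled, the WT means at 3 months were 71.4 CPM for Psma8 and 398 CPM for Psma7.

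A pair of genes picked from a list of 18 meiotic markers was also highest in the 2 libraries with the most Psma8. Of the pair, Ldhc was chosen after its values were seen. Sycp3, another gene of the list, and the sum of the list were not highest there. Ldhc, the lactate dehydrogenase of spermatocytes, was at 1545 CPM in replicate 1 of WT and 1590 CPM in replicate 2 of Tet1KO at 3 months, and at 47.3 to 292 CPM in the other libraries. Piwil1, the piRNA-binding protein of pachytene spermatocytes, was at 20.9 and 12.8 CPM in those 2 libraries and at 1.21 to 5.23 CPM elsewhere. The 18 genes of that list summed at 3 months to 4387 to 7005 CPM for WT and 4947 to 6088 CPM for Tet1KO. At 11 months the sums were 3963 to 5700 CPM for WT and 2912 to 6446 CPM for Tet1KO. The highest sum at 3 months was that of replicate 3 in both genotypes (7005 and 6088 CPM), against 6762 CPM in replicate 1 of WT and 5837 CPM in replicate 2 of Tet1KO. A list of 16 spermatid markers summed to 3653 CPM in replicate 1 of WT and 1952 CPM in replicate 2 of Tet1KO at 3 months, and to 3132 and 2939 CPM in the replicates 1 of 11 months, where Psma8 was at 53.2 and 54.4 CPM. The sums thus did not follow the order of Psma8. In the meiotic list at 3 months the order depends on single genes, as described below. All 18 meiotic markers had a count in every library. In WT, 14 of the 18 were lower at 11 than at 3 months (median log2 fold change -0.36), and none of them passed the test. Without replicate 1 of 3 months 13 of the 18 were lower (median -0.30). Sycp3, a component of the meiotic chromosome axis, was at 463 to 2100 CPM with no such pattern. At 3 months it was at 2100 CPM in replicate 3 of WT and 1402 CPM in replicate 3 of Tet1KO. It was at 1144 CPM in replicate 1 of WT and 841 CPM in replicate 2 of Tet1KO. These gaps exceed those between the sums. Ldhc, in the same list, differed by more between these libraries, in the other direction. Which meiotic sum was highest in each genotype at 3 months thus depends on the single genes counted. The part of later germ cells in the Psma8 values was not tested.

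The immunoproteasome genes split into 1 well-expressed gene and 2 with low counts. Psmb10, which replaces Psmb7, had 70.7, 61.5 and 79.8 CPM in the WT libraries of 3 months and 48.8, 54.3 and 57.1 CPM in the Tet1KO libraries. All 3 Tet1KO values lay below all 3 WT values there, as did those of 3.62% of all tested genes. At 11 months it was at 58.5, 45.6 and 88.9 CPM in WT and at 44.8, 58.5 and 72.1 CPM in Tet1KO, and the groups overlapped. The log2 fold change between genotypes was -0.40 ± 0.24 at 3 months (unadjusted p = 0.117, adjusted p = 1) and -0.14 ± 0.24 at 11 months (adjusted p = 1), both from edgeR. At 11 months it was 0.16 without replicate 3 of WT and 0.02 without replicate 1 of Tet1KO. As a length-scaled share of Psmb7 plus Psmb10, Psmb10 at 3 months made up 18.5 ± 1.18% (SD, n = 3) for WT and 14.99 ± 1.43% for Tet1KO. At 11 months it made up 16.01 ± 3.04% and 16.3 ± 2.89%. Annotated exon is 1705 bases for Psmb10 and 3421 for Psmb7, so the scaling raises this share too. Unscaled, the WT means at 3 months were 70.7 CPM for Psmb10 and 623 CPM for Psmb7.

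Psmb8, which replaces Psmb5, had 4 to 70 counts per library. The WT libraries of 3 months had 2.49, 3.90 and 3.49 CPM of Psmb8 and the Tet1KO libraries 0.413, 2.59 and 2.79 CPM. Those of 11 months had 3.85, 1.46 and 3.73 CPM (WT) and 2.03, 7.03 and 3.34 CPM (Tet1KO). Replicate 1 of Tet1KO at 3 months was lowest and replicate 2 of Tet1KO at 11 months highest, and the groups overlapped at both ages. The genotype log2 fold change of Psmb8 was -0.75 ± 0.67 at 3 months and 0.45 ± 0.66 at 11 months (edgeR, adjusted p = 1 at both ages). At 3 months it was -0.29 without replicate 1 of Tet1KO, and at 11 months -0.16 without replicate 2 of Tet1KO and 0.12 without replicate 2 of WT. Its length-scaled share of Psmb5 plus Psmb8 was 0.0427% to 0.860%.

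Psmb9, which replaces Psmb6, had 21 to 69 counts per library. The WT libraries of 3 months had 2.49, 4.21 and 3.22 CPM of Psmb9 and the Tet1KO libraries 3.00, 3.45 and 5.77 CPM. Those of 11 months had 2.65, 4.03 and 3.84 CPM (WT) and 1.29, 3.82 and 2.51 CPM (Tet1KO). Groups overlapped at both ages, and the genotype log2 fold change was 0.30 ± 0.45 at 3 months and -0.47 ± 0.45 at 11 months (edgeR, adjusted p = 1 at both ages). Without replicate 3 of Tet1KO the value at 3 months was -0.04. At 11 months it was -0.89 without replicate 2 of Tet1KO and -0.15 without replicate 1 of Tet1KO. The length-scaled share of Psmb9 in Psmb6 plus Psmb9 was 0.111% to 0.408%.

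RNA of leukocytes, which use the immunoproteasome, was present in every library. A list of 18 leukocyte markers summed at 3 months to 449 to 852 CPM for WT and 366 to 741 CPM for Tet1KO. At 11 months the sums were 108 to 1214 CPM for WT and 609 to 1191 CPM for Tet1KO. At least 17 of the 18 had a count in each library. The lowest sum, in replicate 2 of WT at 11 months, stood beside 1.46 CPM of Psmb8, 45.6 CPM of Psmb10 and 4.03 CPM of Psmb9, the third highest Psmb9 value of the 12 libraries. The highest Psmb8 value stood beside the highest value of the pan-leukocyte receptor Ptprc (15.3 CPM against 0.933 to 7.77 in the other libraries). The highest leukocyte sum, in replicate 1 of WT at 11 months, stood beside 3.85 CPM of Psmb8, 58.5 CPM of Psmb10 and 2.65 CPM of Psmb9. Cd74, the class II invariant chain, ran from 29.7 to 459 CPM and was highest in that same library. Tap1, the peptide transporter, was at 0.117 to 1.91 CPM, and the class I light chain B2m was at 61.0 to 258 CPM. The part of leukocyte RNA in the Psmb8, Psmb9 and Psmb10 values was not tested.

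**Figure D2:**
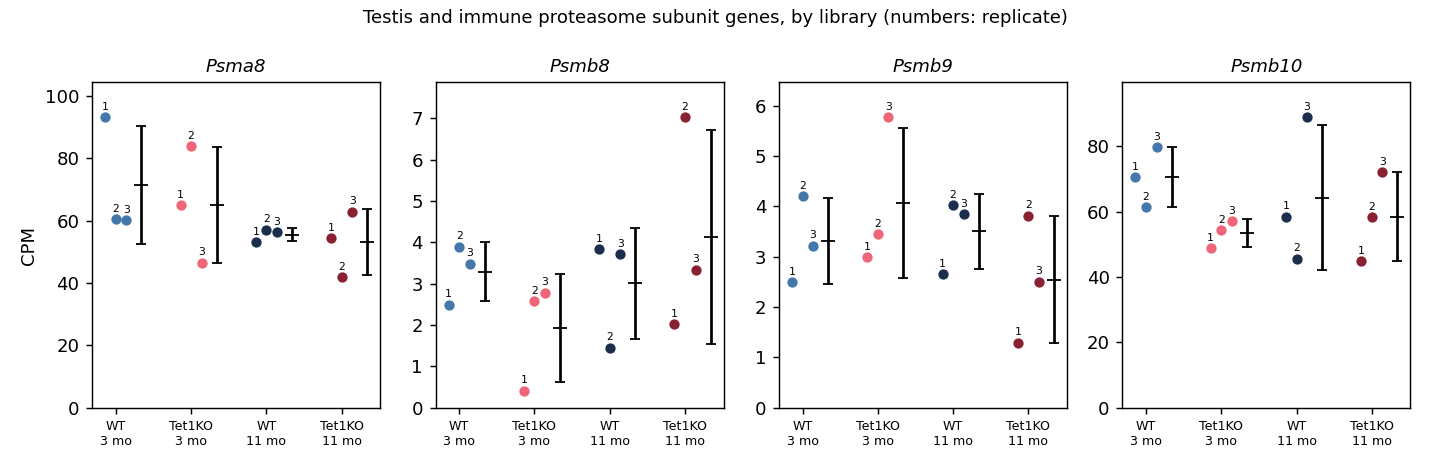
Levels of Psma8, Psmb8, Psmb9 and Psmb10 in CPM by library, with the replicate number at each point and the group mean ± SD (n = 3) beside it. Psma8 and Psmb10 sit between 41.99 and 93.2 CPM and Psmb8 and Psmb9 between 0.413 and 7.03 CPM, and the only genotype pair without overlap is Psmb10 at 3 months.

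Core and cap genes did not vary together across libraries. Each gene's log2 CPM was set against its own mean over the 12 libraries, and the median over the cap genes was subtracted from the median over the core genes. This difference was 0.14, 0.00 and 0.43 in the WT libraries of 3 months and 0.04, -0.12 and 0.00 in the Tet1KO libraries. Those of 11 months had differences of 0.03, -0.69 and 0.18 (WT) and -0.07, -0.50 and 0.30 (Tet1KO). The 2 lowest values belonged to replicate 2 of each genotype at 11 months, where 1 and 0 of the 14 core genes and 16 and 13 of the 17 cap genes lay above their own means. The highest belonged to replicate 3 of WT at 3 months, with 13 core genes and 3 cap genes above their means.

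The same libraries differed in their balance of short and long genes. The median deviation of 714 abundant genes with at most 1500 bases of exon, minus that of 3028 with at least 4000 bases, was -0.26 and -0.28 in the replicates 2 at 11 months. It was 0.21 in replicate 3 of WT at 3 months and 0.23 and 0.25 in replicates 3 of WT and Tet1KO at 11 months, and -0.15 to 0.06 in the other 7 libraries. Median exon length was 2126 bases for the core genes and 2820 bases for the cap genes. The part of this balance in the core and cap difference was not tested.

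**Figure D3:**
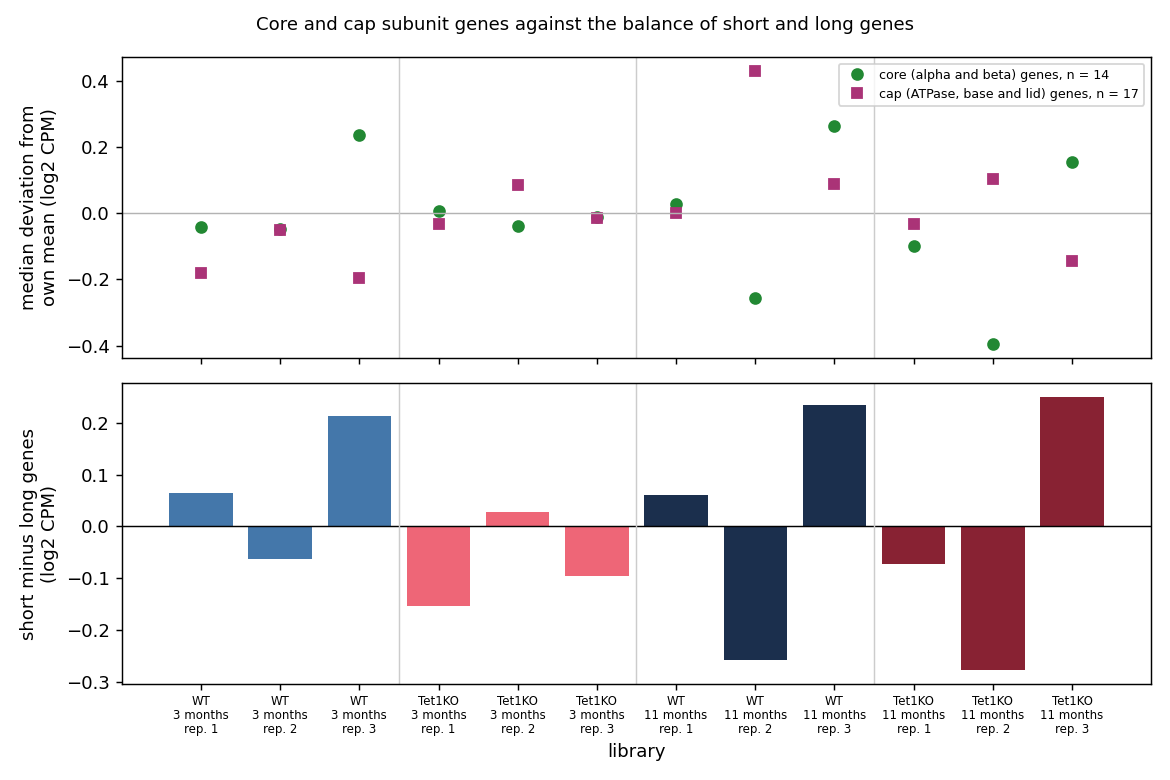
Upper panel, median deviation of the 14 core and 17 cap genes from their own 12-library means (log2 CPM) in each library. Lower panel, the median deviation of short minus long genes in the same libraries. Core and cap are farthest apart in replicate 2 of WT (-0.69, core minus cap) and of Tet1KO (-0.50) at 11 months, the libraries with the lowest bars.

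At 3 months, no proteasome gene passed the test between the genotypes. In edgeR 0 of the 42 passed an adjusted p of 0.05, as did 0% of all 19815 tested genes, and 0 had an unadjusted p under 0.05, against 1.14% of all genes. DESeq2 and limma-voom also called 0 of the 42. Tet1KO was higher for 24 and lower for 18, with a median log2 fold change of 0.01 beside -0.02 over all genes. Cap genes were mostly above zero (15 of 17, median 0.13) and core genes mostly below it (10 of 14, median -0.10). Without replicate 1 of WT and replicate 2 of Tet1KO, 11 of the 17 cap genes were higher and 11 of the 14 core genes lower. Leaving out 1 library at a time, 12 to 16 cap genes were higher and 6 to 12 core genes lower, the 6 being without replicate 3 of WT. The cap median was 0.05 without replicate 2 of Tet1KO, and the core median was 0.01 without replicate 3 of WT.

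The 5 smallest p-values at 3 months belonged to 3 ATPase genes, Psmb10 and the lid gene Psmd12. Psmc5 was at 99.7, 97.6 and 77.9 CPM in WT and at 117, 134 and 124 CPM in Tet1KO, a log2 fold change of 0.45 ± 0.23 (edgeR, unadjusted p = 0.0811, adjusted p = 1). Psmc4 was at 160, 185 and 154 CPM in WT and at 195, 201 and 217 CPM in Tet1KO, a log2 fold change of 0.30 ± 0.17. In both genes all 3 Tet1KO values lay above all 3 WT values. The other ATPase gene, Psmc1, overlapped between genotypes at a log2 fold change of 0.26 ± 0.20, which was 0.17 without replicate 2 of Tet1KO. Psmd12 overlapped too, at 0.20 ± 0.16.

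Groups of 3 months did not overlap for 5 proteasome genes. Psmc5, Psmc4 and Psmd13 were higher in Tet1KO (3 of 42, beside 3.32% of all genes), and Psmb10 and Psme2 were lower (2 of 42, beside 3.62%). Psmd13, a lid subunit, was at 35.8, 46.5 and 23.5 CPM in WT and at 46.8, 46.8 and 47.0 CPM in Tet1KO. It shares 342 exon bases with Sirt3 on the other strand (4773 counts in all, beside 6851 for Psmd13), and reads there were counted for both. Psme2, an interferon-inducible PA28 subunit, was at 238, 254 and 312 CPM in WT and at 232, 234 and 234 CPM in Tet1KO. The margins of Psmd13 and Psme2 were small beside the spread of the WT libraries. Sertoli cell markers were lower in Tet1KO at this age (16 of 16 tested, median log2 fold change -1.65, sums of 446 to 1010 CPM in WT and 392 to 450 CPM in Tet1KO, 0 passing the adjusted test). Without replicate 1 of WT and replicate 2 of Tet1KO 15 of the 16 were lower (median -1.52). Leukocyte markers were lower for 17 of 18 (median -0.30) and spermatid markers for 15 of 16 (median -0.43, sums of 630 to 3653 CPM in WT and 840 to 1952 CPM in Tet1KO). Without those 2 libraries the counts were 15 of 18 (median -0.22) and 10 of 16 (median -0.04). The part of these cells in the subunit values was not tested.

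At 11 months, most proteasome genes were slightly lower in Tet1KO, and none passed the test. Tet1KO was lower for 37 of the 42 and higher for 5, with a median log2 fold change of -0.13 beside 0.02 over all genes. In edgeR 0 of the 42 passed an adjusted p of 0.05 (0% of all genes) and 0 had an unadjusted p under 0.05 (1.65% of all genes), and DESeq2 and limma-voom called 0 of the 42. Lower values were found for all 7 standard alpha genes, 6 of the 7 standard beta genes, all 6 ATPase genes, all 3 other base genes and all 8 lid genes. The 5 that were higher were Psmb5 (0.01), Psmb8 (0.45), Psmd9 (0.16), Psme3 (0.06) and Psme4 (0.05). Leaving out 1 library at a time left 28 to 37 of the 42 lower, and 35 were lower with both replicates 2 left out, when the median was -0.07.

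The class pattern at 11 months moved with single libraries. Of the 17 cap genes, 17 were lower with all libraries and 8 without replicate 2 of WT. Of the 14 core genes, 13 were lower with all libraries, 4 without replicate 2 of Tet1KO and 6 without replicate 3 of WT. The replicates 2 are the libraries in which cap and core lay farthest apart and in which short genes were lowest relative to long genes. Same-numbered libraries of the 2 genotypes shared deviations at this age. With the replicate number as a block the cap count was 17 of 17 and the core count 13 of 14. Each number occurs once in each genotype, so the block left the fold changes nearly as they were and does not check this pattern.

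The smallest p-values at 11 months were those of cap genes and cap assembly factors. Psmd5, an assembly chaperone of the ATPase ring, was at 333, 389 and 325 CPM in WT and at 313, 296 and 239 CPM in Tet1KO, a log2 fold change of -0.30 ± 0.16 (edgeR, unadjusted p = 0.0823, adjusted p = 1). Psmd14 was at 462, 439 and 485 CPM in WT and at 395, 330 and 435 CPM in Tet1KO, a log2 fold change of -0.26 ± 0.14. In both genes all 3 Tet1KO values lay below all 3 WT values. Psmd11, Psmd4 and Psmd10 overlapped between the genotypes, at log2 fold changes of -0.30 ± 0.16, -0.33 ± 0.21 and -0.23 ± 0.15. Without replicate 2 of Tet1KO the value was -0.16 for Psmd14 and -0.10 for Psmd10. Without replicate 2 of WT it was -0.19 for Psmd4 and -0.20 for Psmd11, and without replicate 3 of Tet1KO it was -0.20 for Psmd5 and for Psmd4. Psmd10 was at -0.15 without replicate 3 of WT. With the replicate block, Psmd14 was at -0.26 ± 0.10, Psmd5 at -0.31 ± 0.12, Psmd4 at -0.33 ± 0.14, Psmd11 at -0.29 ± 0.12 and Psmd10 at -0.24 ± 0.11. Each had an adjusted p of 1 in edgeR, and the numbers are not known to pair samples.

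Groups of 11 months did not overlap for 4 proteasome genes, all lower in Tet1KO (beside 2.54% of all genes), and for 0 higher (beside 2.82%). Besides Psmd5 and Psmd14 these were Psmd6 and Psme1. Psmd6, a lid subunit, was at 336, 320 and 324 CPM in WT and at 319, 267 and 281 CPM in Tet1KO. Psme1, the partner of Psme2 in PA28, was at 152, 170 and 181 CPM in WT and at 152, 144 and 148 CPM in Tet1KO. The highest Tet1KO value of each lay just under the lowest WT value.

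Markers of other cells moved between the genotypes at 11 months. All 18 leukocyte markers were higher in Tet1KO (median log2 fold change 0.72), and Ptprc, at 1.33 ± 0.59, had the smallest unadjusted p of that list, 0.0441, in edgeR. All 7 markers of peritubular myoid cells, which surround the tubule and contract, were lower (median -1.98, summed level 72.2 to 244 CPM in WT and 23.2 to 55.4 CPM in Tet1KO). Spermatid markers were higher in Tet1KO for 16 of 16 (median 0.41, sums of 393 to 3132 CPM in WT and 538 to 2939 CPM in Tet1KO). Sertoli markers were lower for 15 of 16 (median -1.15, sums of 410 to 616 CPM in WT and 371 to 435 CPM in Tet1KO). With both replicates 2 left out, 11 of 18 leukocyte and 11 of 16 spermatid markers were higher, and 12 of 16 Sertoli and 7 of 7 myoid markers were lower. None of these lists' genes passed the adjusted test, and their part in the lower subunit values was not tested.

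**Figure D4:**
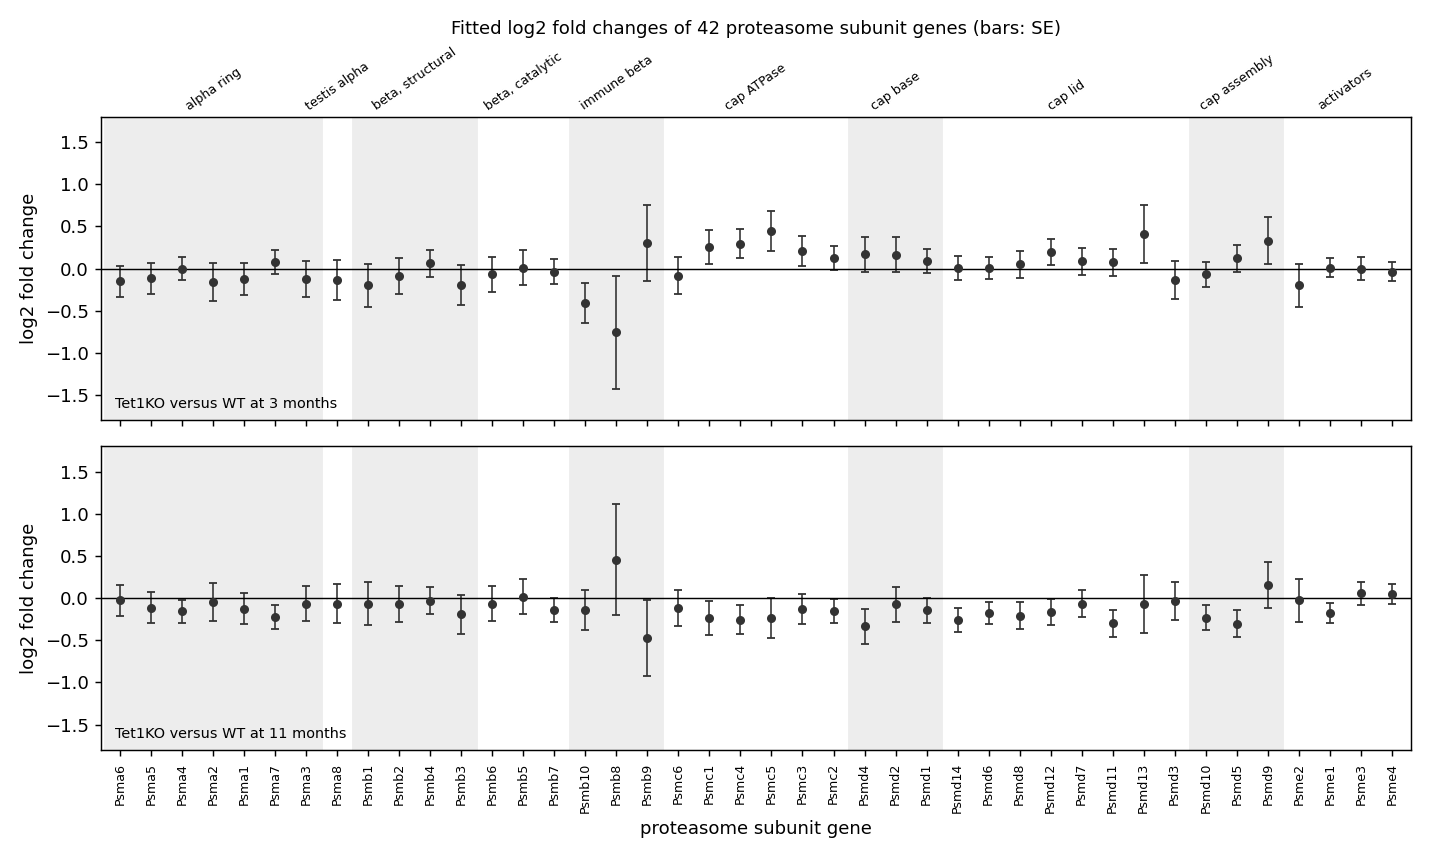
Fitted Tet1KO minus WT log2 fold change of each of the 42 tested genes at 3 months (upper) and 11 months (lower), with bars of 1 SE. At 3 months 24 points lie above zero and at 11 months 5, and the widest bars belong to Psmb8 and Psmb9.

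With age, WT libraries showed higher cap genes, again with no call. In edgeR 0 of the 42 passed an adjusted p of 0.05 (0% of all genes), and 5 had an unadjusted p under 0.05, against 5.67% of all genes. DESeq2 and limma-voom called 0 of the 42. At 11 months 28 were higher and 14 lower, with a median log2 fold change of 0.09 beside -0.06 over all genes. Cap genes were higher for 16 of 17 (median 0.26), against 5 of 14 core genes (median -0.03). The cap count was 16 or 17 whichever library was left out and 17 without both replicates 2 of 11 months, when the cap median was 0.19 and 13 of the 14 core genes were also higher. The core count of higher genes was 10 without replicate 2 of 11 months, 8 without replicate 1 of 11 months, 9 without replicate 3 of 3 months and 3 without replicate 3 of 11 months. The largest deviations of the cap genes among the 6 WT libraries were 0.43 in replicate 2 of 11 months and -0.20 in replicate 3 of 3 months.

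ATPase genes led this comparison. Psmc4 was at 160, 185 and 154 CPM at 3 months and 211, 286 and 236 CPM at 11 months, a log2 fold change of 0.56 ± 0.17 (edgeR, unadjusted p = 0.00736, adjusted p = 0.774). Psmc5 was at 99.7, 97.6 and 77.9 CPM at 3 months and 121, 198 and 128 CPM at 11 months, a log2 fold change of 0.70 ± 0.24. It was 0.44 without replicate 2 of 11 months. Psmc1 was at 208, 253 and 192 CPM at 3 months and 259, 414 and 262 CPM at 11 months, a log2 fold change of 0.52 ± 0.20, and 0.26 without replicate 2 of 11 months. In all 3 genes every value of 11 months lay above every value of 3 months, and replicate 2 of 11 months was the highest.

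Outside the ATPases, Psma7 and Psmd5 had the next smallest p-values. Psma7, the standard partner of Psma8, was at 352, 406 and 436 CPM at 3 months and 431, 529 and 547 CPM at 11 months, a log2 fold change of 0.34 ± 0.14 (edgeR, unadjusted p = 0.0368, adjusted p = 0.774). Psmd5 was at 239, 324 and 247 CPM at 3 months and higher in each library of 11 months, a log2 fold change of 0.37 ± 0.16. In WT 7 genes were higher at 11 months with no overlap (Psmc4, Psmc5, Psmc1, Psmc2, Psmd5, Psmd8 and Psme1, beside 5.42% of all genes) and 1 was lower, Psma8. Meiotic and spermatid markers were mostly lower at 11 months in WT (14 of 18 and 15 of 16). Without replicate 1 of 3 months, 13 of the 18 meiotic markers were lower but 13 of the 16 spermatid markers were higher (median 0.67). Sertoli markers were lower for 13 of 16 (median -1.02) and, without that library, for 11 of 16 (median -0.30). The part of these cells in the subunit values was not tested.

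In Tet1KO the proteasome genes were split in direction between ages. In edgeR 0 of the 42 passed an adjusted p of 0.05 (0% of all genes), and 1 had an unadjusted p under 0.05, against 2.33% of all genes. DESeq2 and limma-voom called 0 of the 42. There were 16 higher and 26 lower at 11 months, with a median of -0.03 beside -0.01 over all genes. With both replicates 2 of 11 months left out, 26 were higher and 16 lower (median 0.02). Core genes were higher for 4 of 14 with all libraries, for 0 without replicate 3 of 11 months, for 13 without replicate 2 of 11 months and for 7 without replicate 1 of 3 months. Cap genes were higher for 3 to 10 of 17 when 1 library was left out, the 10 being without replicate 3 of 11 months and the 3 without replicate 2 of 11 months. The 1 gene was Psmd3, a lid subunit, at 17.98, 19.51 and 19.998 CPM at 3 months and 22.66, 34.96 and 28.15 CPM at 11 months, a log2 fold change of 0.58 ± 0.23 (edgeR, unadjusted p = 0.0272, adjusted p = 1). It was the only 1 of the 42 whose ages did not overlap in Tet1KO (beside 3.10% of all genes in that direction), and none was lower without overlap (beside 3.09%). The other 4 of the 5 smallest p-values belonged to Psmb8 (1.08 ± 0.67), Psmb9 (-0.69 ± 0.45), Psmd14 (-0.18 ± 0.14) and Psma8 (-0.30 ± 0.24). The value of Psmb8 was 0.46 without replicate 2 of 11 months and 0.62 without replicate 1 of 3 months. That of Psmb9 was -1.10 without replicate 2 of 11 months, -0.36 without replicate 1 of 11 months and -0.34 without replicate 3 of 3 months. That of Psmd14 was -0.08 without replicate 2 and -0.27 without replicate 3 of 11 months, and -0.11 without replicate 3 of 3 months. All 18 leukocyte markers were higher and all 7 myoid markers lower at 11 months in Tet1KO (median log2 fold changes of 0.86 and -2.74, 0 passing the adjusted test), and their part in these values was not tested.

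The genotype contrast was compared between the ages as a difference of log2 fold changes, 11 months minus 3 months. In edgeR 0 of the 42 passed an adjusted p of 0.05 (0% of all genes), and 1 had an unadjusted p under 0.05, against 1.57% of all genes. DESeq2 and limma-voom called 0 of the 42. The difference was below zero for 27 and above it for 15, with a median of -0.15 beside 0.06 over all genes. It was below zero for 16 of 17 cap genes (median -0.28) and for 6 of 14 core genes (median 0.00). All 6 ATPase genes were below zero, led by Psmc4 at -0.55 ± 0.24 (edgeR, unadjusted p = 0.042, adjusted p = 1). Psmc5 followed at -0.68 ± 0.33, then Psmd5 at -0.43 ± 0.23, Psmd4 at -0.50 ± 0.29 and Psmc1 at -0.49 ± 0.29. Without replicate 2 of WT at 11 months Psmc5 was at -0.42 and Psmc1 at -0.23. When single libraries were left out, the cap count was 14 to 17 of 17, the cap median -0.43 to -0.20 and the core median -0.19 to 0.14. The lowest and highest cap medians were without replicates 1 and 2 of WT at 11 months, and those of the core without replicates 3 and 2 of Tet1KO at 11 months. The median over all 42 was -0.09 without replicate 2 of Tet1KO or replicate 3 of WT at 11 months. The core count below zero ran from 3 (without replicate 2 of Tet1KO at 11 months) to 14 (without replicate 3 of Tet1KO at 11 months). In the same contrast 18 of 18 leukocyte and 16 of 16 spermatid markers were above zero (medians 0.92 and 0.81) and 7 of 7 myoid markers below it (median -2.32), and the part of those cells in these values was not tested. This contrast shares its libraries with the 4 comparisons above, so it restates them and adds no separate samples.

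Other genes of the pathway gave a similar picture of no calls. Of 5 measured chaperones of core assembly, 5 were lower in Tet1KO at 3 months and 5 at 11 months, with medians of -0.09 and -0.13. Psmg4 (-0.40 ± 0.27) and Psmg2 (-0.14 ± 0.13), partners in the chaperone pairs that start the alpha ring, had the smallest p-values of the list at 3 and at 11 months. Pomp, the chaperone that matures the core, was at 367 to 637 CPM, with log2 fold changes of -0.09 ± 0.23 and 0.00 ± 0.23. Among 6 other cap parts and regulators, 4 were higher at 3 months and 2 at 11 months, and the smallest p-values belonged to the small cap subunit Sem1 (-0.47 ± 0.35) and the cap deubiquitinase Uchl5 (-0.18 ± 0.13).

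Regulators of proteasome genes stayed in a narrow range. The 7 of them summed to 233 to 260 CPM over all libraries, with 4 higher in Tet1KO at 3 months (median 0.01) and 3 at 11 months (median -0.03). Nfe2l1 was at 20.5 to 33.9 CPM, with log2 fold changes of 0.01 ± 0.18 and -0.06 ± 0.18. The smallest p-values were those of Ngly1 (0.21 ± 0.22), the glycanase needed to activate NFE2L1, at 3 months and of Nfe2l2 (-0.09 ± 0.13) at 11 months. Of 12 ubiquitin genes, 6 were higher at 3 months and 5 at 11 months, and Ubqln1 (0.26 ± 0.19), a shuttle to the proteasome, had the smallest p-value at 3 months. Of 10 tested genes of antigen presentation and interferon signalling, 5 were higher at 3 months and 7 at 11 months, led by B2m (-0.40 ± 0.34) and Irf1 (0.60 ± 0.32). In these 5 lists 0 genes passed the adjusted edgeR test, and 0 had an unadjusted p under 0.05, in either genotype comparison.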

How the data were processed

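The deposited table holds raw counts of 53715 genes in the 12 libraries. Its header names featureCounts 1.6.2 with GENCODE vM17. Per the file headers, counting ignored strand, required a mapping quality of at least 30, and gave a fragment over several genes, or with several alignments, to each. The submitters' processing notes also name HISAT2, SAMtools and the build mm10. Symbols came from a GENCODE vM21 table (53620 of 53715 genes matched).

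Counts of all 12 libraries (8325159 to 18223645 per library) were tested with edgeR 4.0.16 in R 4.3.3 (filterByExpr, TMM scaling, 4 group means, robust quasi-likelihood F test, two-sided, Benjamini-Hochberg adjustment over 19815 genes at 0.05). SEs were derived from the F statistic. Log2 CPM used a prior count of 2, and length-scaled values used the exon length of the deposited table. The script was tested on simulated data. DESeq2 1.42.0, limma-voom 3.58.1, other scalings and filters, fits of the compared groups alone, the 2-letter library code prefix as a covariate, and left-out libraries were alternatives; leaving out both replicates 2 of 11 months and a block across ages were chosen after seeing the data. Same-numbered libraries of the 2 genotypes correlated at 0.37, 0.17 and 0.33 in their deviations from the group means at 11 months. These values do not establish that the numbers pair samples. At 3 months replicate 1 of WT and replicate 2 of Tet1KO, with unlike numbers, correlated at 0.71.

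The subunit genes, the classes and every list were chosen with earlier results of these data known. Named genes were Psma8, Psma7, Psmb5 to Psmb11, Psme1 to Psme4, the highest and lowest length-scaled gene of each class, the 5 smallest p-values per comparison, set markers, and the smallest p-value of each pathway list. Genes whose groups did not overlap, the genes higher at 11 months and Ldhc were added after their values were seen. Some genes that this rule names are not reported here.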

Additional observations from a re-analysis of the deposited data

How the results depend on the processing

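Under the 25 other settings run, 0 proteasome genes were called, and the smallest adjusted p of a named one was 0.39 (Psmc4, WT ages, DESeq2). DESeq2 called 2 genes of the whole table between genotypes at 3 months, 3 at 11 months and 7 between ages in Tet1KO, against 0 in edgeR. The cause was not tested. The median over the proteasome genes at 11 months was -0.071 without both replicates 2. Between ages in WT it was 0.15 without the 2 libraries of the DY code prefix and 0.14 without both replicates 2 of 11 months. The DY libraries are replicate 2 of WT and replicate 1 of Tet1KO at 3 months. All libraries of 11 months have the prefix AK, so prefix and age are partly confounded.

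Leaving out 1 library at a time, the median ran from -0.0077 to 0.063 at 3 months, from -0.19 to -0.10 at 11 months, from 0.043 to 0.18 between ages in WT and from -0.21 to -0.089 for the difference between ages. Signs turned, with the range over left-out libraries, for Psmb9 at 3 months (-0.041 without replicate 3 of Tet1KO, to 0.52) and Psma8 at 3 months (-0.36 to 0.11 without replicate 1 of WT, 0.062 without replicate 3 of Tet1KO). At 11 months they turned for Psmb8 (-0.16 without replicate 2 of Tet1KO, to 0.78, and -0.50 without both replicates 2), Psmb10 (-0.33 to 0.16 without replicate 3 of WT, 0.022 without replicate 1 of Tet1KO) and Psma8 (-0.21 to 0.078 without replicate 2 of Tet1KO, and 0.097 without both replicates 2).

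With the replicate block within age, 0 genes were called in each genotype comparison, and it changed no other call. At 3 months same-numbered libraries correlated at -0.59, -0.18 and 0.30, with no common sign, and no pairing by number is established at either age. Depth limits Psmb8, Psmb9 and Psmb11, at 0 to 70 counts per library. The difference between ages cannot be fitted from 2 groups alone.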
